A study of Mus musculus with 8 samples.

Results

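The comparison set the 4 arrays of CD11b+ cells from NOD.Idd3 mice against the 4 arrays of CD11b+ cells from NOD mice, over unstimulated and peptidoglycan-treated cells together, which are all 8 arrays of the study. Arrays were assigned by the strain in their titles. NOD mice develop autoimmune diabetes spontaneously, and NOD.Idd3 is the congenic strain with another allele at Idd3, a diabetes locus on chromosome 3 that contains the cytokine genes Il2 and Il21. Cells of both strains were kept for 4 h at 37 °C either in medium or with peptidoglycan (PGN), a polymer of bacterial cell walls, at 5 µg/ml. Each strain and condition had 2 arrays, numbered as biological replicates 1 and 2. The sources used here do not give the tissue, the age of the mice, the donor of the Idd3 allele, the extent of the congenic segment or any pooling of animals. The labels do not say whether the unstimulated and PGN-treated cells of a strain and replicate number came from the same preparation, so the 4 arrays of a strain may represent fewer than 4 independent samples, and the p-values reflect no more than the spread among these arrays.

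CD11b is the alpha chain of an integrin that monocytes, macrophages and neutrophils carry, and it is also found on some dendritic cells, natural killer cells and B cells. Macrophages resident in tissues clear dying cells, lipoproteins and haemoglobin through receptors such as CD163, the mannose receptor and MerTK, and they make C1q, the recognition molecule of the classical complement pathway. B cells are set apart by the B cell receptor with its CD79 chains, by CD20, and by the receptors CXCR5 and BAFF-R that direct them to follicles and keep them alive.

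All values are log2 intensities of 1 probe set per gene. The array medians lay between 6.38 and 6.65 over 18193 genes, and the 2 arrays of each group had a Pearson r across genes of 0.985 to 0.991. Itgam, which encodes CD11b, stood at 7.87 to 9.02 and the leukocyte gene Ptprc at 12.23 to 13.30 on every array, and Itgam differed by 0.27 ± 0.14 between the strains (NOD.Idd3 minus NOD, SE, limma adjusted p = 0.544). On every array Xist was at least 10.69 and the highest of the 3 measured Y-linked genes at most 4.21. The 3′ minus 5′ difference of the Gapdh control probe sets, a measure of RNA and labelling quality, ran from 0.877 to 1.16 in NOD and from 0.717 to 0.803 in NOD.Idd3, so the strains did not overlap. The same measure for Actb ran from 0.425 to 0.580 in NOD and from 0.215 to 0.460 in NOD.Idd3. This difference and the strain cannot be told apart in this design. Arrays of different strain with the same condition and replicate number formed 4 matched pairs, and the unstimulated pair of replicate 2 stood apart: over all genes its strain differences had a Pearson r of -0.009, 0.025 and 0.006 with those of the other pairs.

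In NOD.Idd3 cells 39 genes were lower and 4 were higher than in NOD cells, at a limma adjusted p under 0.05 with condition and replicate number as terms. The lower genes included 8 of the tissue macrophage list, among them all 3 C1q chains, Cd163 and Mrc1, and 8 of the B cell list, among them Ms4a1 and Cd79b. The remaining 23 lower genes included Igf1, Scd1 and Csf1, and the higher genes were Apoc2, Mid1, Spink2 and Htr7. The 43 genes made up 0.236% of the 18193 tested, with 0.214% lower and 0.022% higher. Folds ran from 1.74 to 3.75, and 37 of the 43 genes differed at least 2-fold. All 43 had the same direction in 4 of 4 matched pairs, which held for 9.89% of all genes downward and 8.33% upward. On 30 of the 39 lower genes no NOD.Idd3 array reached any NOD array, against 1.77% of all genes. For 2 of the 4 higher genes no NOD array reached any NOD.Idd3 array, against 1.08% of all genes. The 43 genes were picked by their p-values on these same arrays. Their shares therefore follow in large part from that choice and are no separate support.

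The count changed with the terms of the fit and with single arrays. Without the replicate term 5 genes passed. With the 2 conditions of a strain and replicate number averaged into 1 value, which leaves 4 values, limma called 0 genes both with the replicate term (1577 had an unadjusted p under 0.05, smallest adjusted p = 0.112) and without it (693, 0.832). With the 8 arrays kept and strain and replicate number as a random block beside the replicate term, 135 passed. The estimated correlation within a block was negative there (-0.231), which narrows the error of the strain term. The larger count therefore does not come from allowing for shared preparations. Without the replicate term the block correlation was 0.231 and 0 passed. Limma also called 0 without replicate 2 of unstimulated NOD.Idd3 (2444 at an unadjusted p under 0.05), without replicate 2 of PGN-treated NOD.Idd3 (1553) and without both unstimulated arrays of replicate 2 (3267). The last of these was tried after the pair was seen to stand apart, and the averaged fit with the replicate term after the others were known. Without replicate 1 of unstimulated NOD, PGN-treated NOD or unstimulated NOD.Idd3 the counts were 17, 18 and 15, and without replicate 2 of PGN-treated NOD 24.

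**Figure D1:**
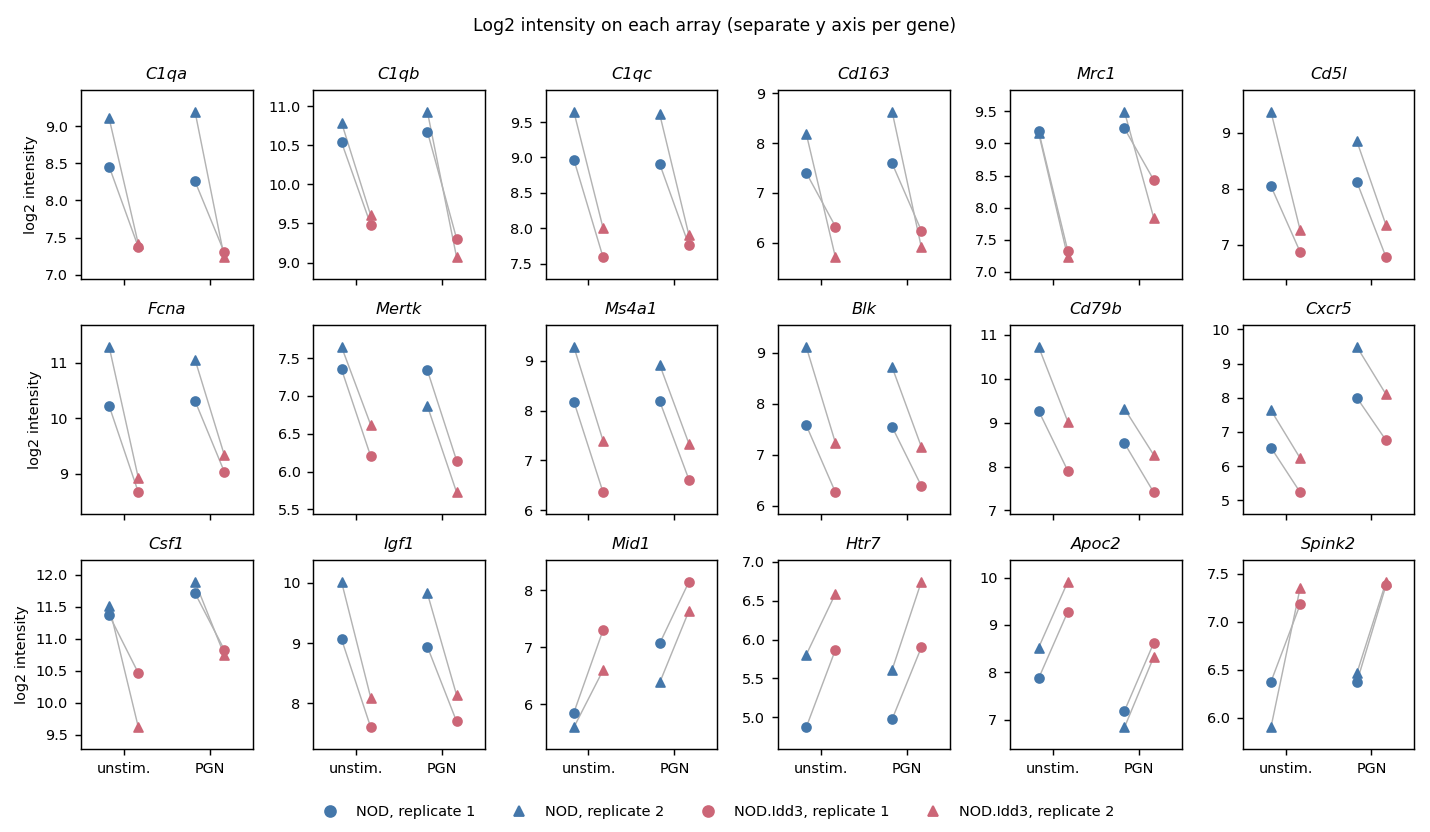
Log2 intensity (y axis, a separate scale per gene) on each of the 8 arrays for 18 genes that passed, by condition (x axis), with NOD in blue, NOD.Idd3 in red, circles for replicate 1, triangles for replicate 2 and lines joining matched pairs. Every line falls for the 14 genes from C1qa to Igf1 and rises for Mid1, Htr7, Apoc2 and Spink2.

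The genes of the complement component C1q were lower together. C1qa, C1qb and C1qc encode its A, B and C chains and are consecutive protein-coding genes on chromosome 4. The promoter sequences of C1qc and C1qb, with those of Mrc1, Cd5l and Fcna, are shown because these macrophage genes moved in the same direction. Each is the 250 bases before the transcript start that the RefSeq promoter table gives on GRCm38.p6, 5′ to 3′ on the gene's strand. For Fcna and C1qc, RefSeq lists further transcripts and the gene's full span reaches past this start, so their windows lie partly or wholly within that span. The sequences are printed with capitals marking GAGGAAG or its reverse complement CTTCCTC, a string of the kind bound by PU.1 and other ETS factors. The C1qa promoter is not shown.
C1qc, chr4:136892915-136893164, minus strand: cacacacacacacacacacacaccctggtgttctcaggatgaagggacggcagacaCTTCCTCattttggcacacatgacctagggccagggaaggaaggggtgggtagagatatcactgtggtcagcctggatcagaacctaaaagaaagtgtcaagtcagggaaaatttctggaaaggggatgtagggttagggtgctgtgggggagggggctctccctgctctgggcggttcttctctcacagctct
C1qb, chr4:136886201-136886450, minus strand: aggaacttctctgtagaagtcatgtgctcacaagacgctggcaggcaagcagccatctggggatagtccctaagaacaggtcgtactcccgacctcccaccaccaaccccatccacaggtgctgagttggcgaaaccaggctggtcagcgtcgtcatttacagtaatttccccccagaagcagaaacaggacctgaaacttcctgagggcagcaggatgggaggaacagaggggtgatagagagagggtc
Mrc1, chr2:14229164-14229413, plus strand: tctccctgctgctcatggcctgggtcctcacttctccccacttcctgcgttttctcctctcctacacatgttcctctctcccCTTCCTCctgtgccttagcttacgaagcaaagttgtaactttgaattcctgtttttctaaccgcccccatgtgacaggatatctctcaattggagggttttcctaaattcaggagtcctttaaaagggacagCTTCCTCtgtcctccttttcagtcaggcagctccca
Cd5l, chr3:87357631-87357880, plus strand: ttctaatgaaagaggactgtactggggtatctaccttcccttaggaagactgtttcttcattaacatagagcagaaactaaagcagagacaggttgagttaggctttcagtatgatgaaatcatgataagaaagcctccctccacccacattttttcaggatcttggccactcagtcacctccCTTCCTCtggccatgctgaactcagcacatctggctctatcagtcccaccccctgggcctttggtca
Fcna, chr2:25627975-25628224, minus strand: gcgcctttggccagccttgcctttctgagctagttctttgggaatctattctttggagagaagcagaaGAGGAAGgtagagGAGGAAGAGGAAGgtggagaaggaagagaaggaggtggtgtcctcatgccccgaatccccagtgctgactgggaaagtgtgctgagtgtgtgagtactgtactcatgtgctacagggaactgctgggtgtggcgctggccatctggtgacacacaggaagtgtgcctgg
The string was found once in C1qc, with its match beginning 194 bases before the start, once in Cd5l, at 2 places in Mrc1 and at 3 in Fcna, where matches share bases, and not in the C1qb window. It was present in 10.6% of 32851 RefSeq mouse promoters of this length, in 10 of the 33 called genes with a promoter, in 4 of 7 called macrophage-list genes and in 0 of 4 called B-list genes. The first share counts promoters and the others count genes, so they are not like measures. The string was picked for display from 12 strings after the matches were seen, so its share among these genes supports nothing. The others, sought on both strands, were GAGGAAGT (2.44% of promoters) and AGGAAG (29.5%), which overlap it, TGCTGA (16.1%), CAGGTG (17.2%), ATGCAAAT (1.6%), CACGTG (6.02%) and 5 longer strings of the EBF (0.779%), NF-kB (1.21%), ETS-IRF (0.167%), LXR (0.0213%) and full MAF element type, the last of which contains TGCTGA and was found in none.

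In the order unstimulated replicates 1 and 2, then PGN replicates 1 and 2, which is kept below, C1qa stood at 8.46, 9.10, 8.26 and 9.19 on the NOD arrays and at 7.37, 7.41, 7.30 and 7.23 on the NOD.Idd3 arrays. C1qb stood at 10.54, 10.79, 10.67 and 10.93 in NOD and at 9.48, 9.60, 9.31 and 9.07 in NOD.Idd3. C1qc values were 8.97, 9.65, 8.90 and 9.61 in NOD and 7.59, 8.001, 7.76 and 7.90 in NOD.Idd3. For each chain gene the NOD.Idd3 arrays were all below the lowest NOD array, and for C1qa and C1qc the replicate 2 arrays of NOD were the highest. The fitted differences were -1.42 ± 0.18 for C1qa, -1.37 ± 0.16 for C1qb and -1.47 ± 0.14 for C1qc (log2, SE), which are 2.68, 2.58 and 2.77-fold lower, with limma adjusted p of 0.0177, 0.0120 and 0.00831. In bulk RNA, fewer cells of a type and less RNA of a gene per cell cannot be told apart, here and for every gene that follows.

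Cd163, the haemoglobin scavenger receptor gene, had the largest fold among the 43 genes. It stood at 7.40, 8.19, 7.59 and 8.63 in NOD and at 6.33, 5.71, 6.24 and 5.91 in NOD.Idd3. The strains did not overlap, and the gap was wider in replicate 2 than in replicate 1 under both conditions. It was 3.75-fold lower (-1.91 ± 0.26, limma adjusted p = 0.0277). Mrc1 encodes the mannose receptor, a lectin of tissue macrophages. Its values were 9.19, 9.16, 9.23 and 9.49 in NOD and 7.33, 7.23, 8.43 and 7.84 in NOD.Idd3, where both PGN arrays were above both unstimulated arrays. It was 2.95-fold lower (-1.56 ± 0.19, adjusted p = 0.0157), and the strains did not overlap.

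Fcna encodes ficolin A, a soluble lectin of the complement system made by macrophages, and stood at 10.22, 11.28, 10.31 and 11.05 in NOD and at 8.67, 8.92, 9.04 and 9.34 in NOD.Idd3. Cd5l encodes a secreted scavenger protein that macrophages release and stood at 8.04, 9.37, 8.12 and 8.85 in NOD and at 6.87, 7.26, 6.77 and 7.34 in NOD.Idd3. Neither gene's strains overlapped, and in both genes the replicate 2 arrays were the higher ones within every group. The differences were -1.72 ± 0.18 for Fcna and -1.53 ± 0.17 for Cd5l, with limma adjusted p of 0.00831 and 0.00978. Mertk, whose product is a receptor tyrosine kinase that takes up apoptotic cells, was also lower (-1.13 ± 0.18, adjusted p = 0.0487), with NOD arrays at 6.87 to 7.65 and NOD.Idd3 arrays at 5.73 to 6.62. It was among the genes just inside the threshold.

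Most of the macrophage list did not pass. Of 28 listed genes 26 were measured, 8 were lower and none was higher at the threshold, and the median difference was -0.55 against -0.03 over all genes. All 4 NOD.Idd3 arrays lay below all 4 NOD arrays for 10 of the 26, against 1.77% of all genes, and 15 were lower in 4 of 4 pairs, against 9.89%. The lists were drawn up with earlier results of these data known. Such shares, here and for the lists below, are therefore descriptions and no separate support. The mean log2 level over the list was 9.28 to 9.52 on NOD arrays and 8.71 to 8.86 on NOD.Idd3 arrays. Axl, which encodes a relative of MerTK, differed by -1.04 ± 0.18 and Vcam1, an adhesion molecule gene, by -0.87 ± 0.15, but neither passed (limma adjusted p = 0.0706 and 0.0755). Timd4, a phosphatidylserine receptor gene, differed by -0.73 ± 0.17 and Slc40a1, the iron exporter gene, by -0.70 ± 0.23, and these did not pass either. Other macrophage genes had point estimates nearer to 0. Csf1r, the receptor gene for CSF1, differed by -0.05 ± 0.12 (95% interval -0.33 to 0.23), Spic, a transcription factor gene of red pulp macrophages, by -0.03 ± 0.12, Hmox1, the heme oxygenase gene, by -0.01 ± 0.15, and Adgre1, a surface receptor gene of macrophages, by -0.24 ± 0.13. Point estimates were above 0 for Maf (0.40 ± 0.18), Trem2 (0.40 ± 0.21) and Apoe (0.16 ± 0.15), none of which passed.

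Further genes of complement and of clearance receptors were lower. C6, which encodes a component of the membrane attack complex, stood at 6.57, 7.32, 7.10 and 7.22 in NOD and at 5.94, 5.56, 5.83 and 5.56 in NOD.Idd3. The strains did not overlap, and the difference was -1.33 ± 0.19 (limma adjusted p = 0.0357). Stab2, a scavenger receptor gene for hyaluronan, differed by -1.18 ± 0.19 (adjusted p = 0.0487). Of the 20 measured complement genes 4 were lower at the threshold and none higher, against 0.214% of all genes lower. These were the C1q genes given above and C6. The list median was -0.14, and 9 of the 20 had point estimates above 0. Among the complement genes that did not pass, C2 differed by -0.72 ± 0.14 and Cfb by 0.73 ± 0.19. Among the 28 scavenger, lectin and efferocytosis receptor genes 5 were lower at the threshold, namely Fcna, Mrc1, Cd163, Stab2 and Mertk. All of these but Stab2 were already counted in the macrophage list. The list median of the 28 genes was -0.19. Cd68, Msr1, Cd36 and Stab1 in that list differed by -0.13 ± 0.12, 0.20 ± 0.17, 0.25 ± 0.33 and -0.04 ± 0.22, and none passed.

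B cell genes were the other group with many lower members. Ms4a1, which encodes CD20, had the smallest p of all genes and stood at 8.18, 9.28, 8.18 and 8.92 in NOD and at 6.36, 7.40, 6.61 and 7.33 in NOD.Idd3. Replicate 2 was above replicate 1 in each group, the strains did not overlap, and the 4 pair differences lay between -1.89 and -1.57. Ms4a1 was 3.28-fold lower (-1.71 ± 0.14, limma adjusted p = 0.00773). Blk, a kinase gene of the B cell receptor pathway, stood at 7.58, 9.12, 7.55 and 8.72 in NOD and at 6.26, 7.23, 6.39 and 7.16 in NOD.Idd3, without overlap. It was 2.79-fold lower (-1.48 ± 0.16, adjusted p = 0.00831).

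Cd79b encodes a signalling chain of the B cell receptor, and its values were 9.27, 10.73, 8.53 and 9.31 in NOD and 7.90, 9.02, 7.41 and 8.26 in NOD.Idd3. The strains overlapped, since replicate 2 of unstimulated NOD.Idd3 was above replicate 1 of PGN-treated NOD, and Cd79b fell with PGN by 0.85 on the log2 scale over both strains. Within matched pairs it was lower in all 4 (-1.31 ± 0.16, limma adjusted p = 0.0172). Cxcr5, the chemokine receptor gene for B cell follicles, stood at 6.54, 7.63, 8.0002 and 9.49 in NOD and at 5.23, 6.23, 6.75 and 8.10 in NOD.Idd3. It rose with PGN by 1.68 over both strains, so that the strains overlapped across conditions, and it was lower in all 4 pairs (-1.34 ± 0.14, adjusted p = 0.00831). The BAFF receptor gene Tnfrsf13c (-1.46 ± 0.18), the transcription factor genes Spib (-1.36 ± 0.14) and Ebf1 (-1.24 ± 0.18) and the adaptor gene Blnk (-1.25 ± 0.19) were lower as well, and of these only Tnfrsf13c overlapped between the strains.

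Of 20 B cell genes listed 19 were measured, 8 were lower and none higher at the threshold, and the median difference was -1.19. In 9 of the 19 all NOD.Idd3 arrays lay below all NOD arrays, against 1.77% of all genes, and 16 were lower in 4 of 4 pairs, against 9.89%. This list too was drawn up with earlier results known, so its shares are no separate support. The gene nearest outside the threshold was Cd22, an inhibitory B cell lectin gene (-1.08 ± 0.17, limma adjusted p = 0.0506). Cd79a (-1.10 ± 0.21), Bank1 (-1.17 ± 0.22), Cr2 (-1.07 ± 0.20), Fcmr (-1.19 ± 0.24) and H2-Ob (-1.31 ± 0.31) did not pass. Cd72, which myeloid cells can also express, differed by -0.06 ± 0.16, and Pax5, a B cell transcription factor gene, by 0.03 ± 0.18 at a dim mean of 4.60 in NOD. Expression of the other listed genes outside B cells, including those that passed, was not tested. The mean log2 level over the B list was 7.25 to 8.34 on NOD arrays and 6.44 to 6.93 on NOD.Idd3 arrays. For all 8 genes that passed, unstimulated NOD was higher in replicate 2 than in replicate 1, and the list's median difference was -0.95 and -0.82 in the replicate 1 pairs and -1.79 and -1.26 in the replicate 2 pairs (unstimulated, then PGN).

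The immunoglobulin genes gave a mixed picture. Of 12 listed genes 4 were measured, with a median of -0.14, and none passed. Ighm, the IgM heavy chain gene, stood at 12.15, 11.80, 11.84 and 12.58 in NOD and at 11.19, 9.55, 10.75 and 10.06 in NOD.Idd3, all below NOD, but with a difference of -1.71 ± 0.30 it did not pass (limma adjusted p = 0.0785). The heavy chain variable segment Ighv14-2 (-1.48 ± 0.19) and a kappa chain variable segment (-1.17 ± 0.14), neither of them in the list, passed. Probe sets of such segments can bind related segments, so which segment was measured is uncertain. The kappa chain gene Igk itself differed by -0.13 ± 0.14 and the lambda segment Iglv1 by -0.16 ± 0.18 (limma adjusted p = 0.787 and 0.8045). Jchain, which plasma cells express strongly, differed by -0.13 ± 0.25, and the 8 plasma cell genes had a median of -0.10 with none past the threshold. H2-DMb2, a gene of the MHC class II peptide loading complex, was lower (-0.96 ± 0.12, limma adjusted p = 0.0187), and it was the only one of 16 measured class II and co-stimulation genes to pass. Btla, an inhibitory receptor gene of lymphocytes, was lower too (-0.88 ± 0.13, adjusted p = 0.0373).

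Levels of other cell types were read from lists of their markers, as a measure of what else moved with the strain. Of 10 platelet genes 1 passed, Tubb1, a tubulin gene of megakaryocytes (-1.25 ± 0.20, limma adjusted p = 0.0487). All 10 had point estimates below 0, and the list median was -0.45. The summed platelet signal was log2 11.54 to 12.86 in NOD and 10.49 to 11.98 in NOD.Idd3. The 10 erythroid genes had a median of -0.62 with none past the threshold, and Hbb-b2, a beta globin gene, differed by -1.19 ± 0.20 (adjusted p = 0.0683). The summed erythroid signal was log2 10.75 to 11.83 in NOD and 10.11 to 10.82 in NOD.Idd3. No member passed in the monocyte (13 genes, median 0.06), neutrophil (17, 0.22), dendritic cell (17, -0.18), T cell (15, -0.07) or NK cell (11, -0.02) lists. Monocyte genes of high level such as Lyz2 (-0.09 ± 0.14) and Cd14 (-0.15 ± 0.14) had point estimates near 0. Among the neutrophil genes 12 of 17 had point estimates above 0, with Prtn3 at 0.83 ± 0.31, Itgb2l at 0.62 ± 0.26 and Ltf at 0.40 ± 0.15, while S100a8 stood at -0.10 ± 0.14 and Ngp at 0.02 ± 0.15. Ace was above NOD on every NOD.Idd3 array (0.82 ± 0.19) without passing (adjusted p = 0.174). The part of these cell types in the strain difference was not tested.

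**Figure D2:**
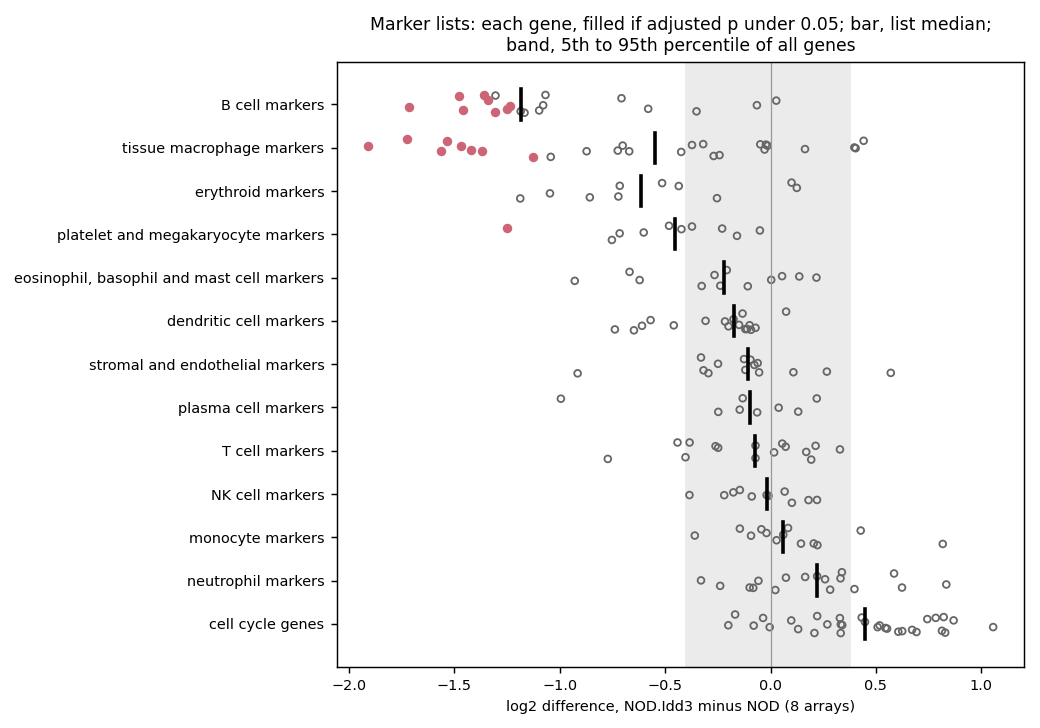
Fitted log2 difference, NOD.Idd3 minus NOD (x axis, 8 arrays), of every measured gene of 13 lists (y axis), with filled red points for genes that passed, black bars for list medians and a grey band for the central range of all genes. The B cell (median -1.19) and tissue macrophage (-0.55) lists hold 16 of the 17 filled points, and the platelet list holds the other.

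Growth factors and lipid enzymes stood among the lower genes outside these lists. Igf1, the insulin-like growth factor gene, which macrophages also express, stood at 9.07, 10.02, 8.94 and 9.82 in NOD and at 7.60, 8.10, 7.70 and 8.14 in NOD.Idd3. Csf1, the gene of the macrophage growth factor M-CSF, stood at 11.37, 11.51, 11.71 and 11.89 in NOD and at 10.46, 9.62, 10.83 and 10.75 in NOD.Idd3. The strains did not overlap for either gene, and the lowest Csf1 value was that of replicate 2 of unstimulated NOD.Idd3. Igf1 differed by -1.57 ± 0.15 (limma adjusted p = 0.00831) and Csf1 by -1.20 ± 0.19 (adjusted p = 0.0487), the latter at the edge of the threshold. Csf1 was the only one of the 20 inflammatory cytokine genes to pass. Their median was -0.06, and 12 of the 20 had point estimates below 0.

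Scd1, a fatty acid desaturase gene, stood at 9.87, 10.77, 10.26 and 11.47 in NOD and at 8.49, 9.56, 8.98 and 9.61 in NOD.Idd3, without overlap, and was 2.7-fold lower (-1.43 ± 0.15, limma adjusted p = 0.00831). Gpd1, a glycerol phosphate dehydrogenase gene, stood at 7.35, 7.15, 7.20 and 7.07 in NOD and 6.004, 6.03, 6.22 and 6.08 in NOD.Idd3, also without overlap, and was lower (-1.11 ± 0.13, adjusted p = 0.0120). The fatty acid binding protein gene Fabp1 (-1.31 ± 0.14) and the phospholipase gene Pla2g2d (-1.20 ± 0.18) were lower too. The 18 measured lipid metabolism genes had a median of -0.10, and Gpd1 was the only one of them to pass.

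The other lower genes had varied products. Gfra2, a receptor gene for neurturin, stood at 6.31, 6.44, 6.11 and 6.19 in NOD and at 4.90, 5.21, 4.82 and 4.42 in NOD.Idd3, and was 2.68-fold lower without overlap (-1.42 ± 0.15, limma adjusted p = 0.00831). Its other probe sets differed less, by -1.10, -0.37, -0.27 and -0.13. Cmbl, a hydrolase gene, differed by -1.67 ± 0.26 and Ubd, a ubiquitin-like modifier gene, by -1.39 ± 0.20. Tenm4, a teneurin gene, differed by -1.27 ± 0.17, Dysf, the dysferlin gene, by -1.14 ± 0.17, and Slc15a2, a peptide transporter gene, by -1.07 ± 0.13. Sema6d (-1.03 ± 0.16), Serpinb6b (-0.94 ± 0.14), Ptprm (-0.89 ± 0.14) and Plcxd2 (-0.80 ± 0.13) completed the lower set. Of these, Sema6d, Serpinb6b and Plcxd2 overlapped between the strains, and all 3 rose with PGN over both strains. For 2 of the 39 lower genes the NOD.Idd3 mean lay under the highest 25th percentile of the arrays (4.57), where background limits the size of a difference.

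Only 4 genes were higher in NOD.Idd3 cells at the threshold. Apoc2 encodes an apolipoprotein that activates lipoprotein lipase, and it stood at 7.87, 8.52, 7.19 and 6.84 in NOD and at 9.28, 9.91, 8.62 and 8.32 in NOD.Idd3. It fell with PGN by 1.15 over both strains, so the strains overlapped across conditions, but the 4 pair differences were alike. It was 2.69-fold higher (1.43 ± 0.20, limma adjusted p = 0.0277). Mid1, an X-linked ubiquitin ligase gene, stood at 5.85, 5.59, 7.07 and 6.38 in NOD and at 7.30, 6.59, 8.15 and 7.64 in NOD.Idd3, and was 2.29-fold higher (1.20 ± 0.13, adjusted p = 0.00978). It rose with PGN by 0.97, and the strains overlapped across conditions.

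Spink2, a serine protease inhibitor gene, stood at 6.37, 5.90, 6.37 and 6.46 in NOD and at 7.18, 7.35, 7.38 and 7.42 in NOD.Idd3, and Htr7, a serotonin receptor gene, at 4.87, 5.80, 4.97 and 5.61 and 5.87, 6.59, 5.90 and 6.75. Neither overlapped between the strains, though for Htr7 replicate 2 of unstimulated NOD nearly reached replicate 1 of unstimulated NOD.Idd3. They were higher by 1.06 ± 0.15 and 0.96 ± 0.13 (limma adjusted p = 0.0282 and 0.021). The gene with the next smallest p upward was Ms4a8a (0.78 ± 0.13, adjusted p = 0.0704), which did not pass. Another probe set of Mid1 had the same sign and differed by 1.09. For Mid1, Htr7 and the lower gene Ebf1, 1 other probe set each, near background, had the opposite sign. In all, 17 of the 43 genes had 36 other probe sets, and these 3 were the only ones of opposite sign. The same sign did not mean the same size. Other probe sets differed by -1.22 and -1.20 for C1qb and by -1.89 for Ms4a1. Those of Plcxd2 (-0.20) and Sema6d (-0.19, -0.19 and -0.15) differed little, the latter near background.

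No cell cycle gene passed. Of 31 measured genes 26 had point estimates above 0 and 5 below, from -0.20 to 1.06 with a median of 0.45, and 14 were higher in 4 of 4 pairs, against 8.33% of all genes. Ccna2, the cyclin A2 gene, differed by 0.87 ± 0.16 (limma adjusted p = 0.0959), Cdk1 by 0.78 ± 0.18, Aurkb by 0.67 ± 0.16 and Bub1 by 1.06 ± 0.27. The list median was 0.62 and 0.57 in the replicate 1 pairs but 0.05 and 0.25 in the replicate 2 pairs. The median over 26 oxidative phosphorylation genes was 0.16 and over 23 interferon response genes 0.10, with none past the threshold in either.

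The strains carry different alleles at Idd3, so the genes there were examined in chromosomal order. Il2 stood at 3.66, 3.32, 3.59 and 3.55 in NOD and at 3.42, 3.62, 3.66 and 3.71 in NOD.Idd3, and Il21 at 3.21, 3.04, 2.91 and 3.23 and 2.95, 2.95, 3.18 and 3.05. Both genes were dim on every array, below the 25th percentile of the arrays (4.28 to 4.57), and the strains overlapped. The fitted differences were 0.08 ± 0.14 and -0.07 ± 0.14 (limma adjusted p = 0.884 and 0.901), and at such intensity a difference in their RNA was not detectable. None of the 22 measured genes of the IL-2 and common gamma chain family passed, and their median was -0.09. Il2ra, the alpha chain gene of the IL-2 receptor, differed by -0.76 ± 0.33 (adjusted p = 0.471).

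Of 17 genes in and around the interval 15 were measured and none passed, with a median of 0.01. The widest differences belonged to neighbours on the side of Il2 opposite Il21. Exosc9, a gene of the RNA exosome, stood at 8.49, 9.07, 8.46 and 8.83 in NOD and at 9.31, 9.46, 9.47 and 10.10 in NOD.Idd3. All 4 NOD.Idd3 arrays were above all 4 NOD arrays, by 0.87 ± 0.16 in the fit (limma adjusted p = 0.0873). Next to it lies Ccna2, already given among the cell cycle genes, and then Bbs7, a ciliary gene, which was also above NOD on every NOD.Idd3 array (0.50 ± 0.18, adjusted p = 0.376) at a dim level. On the other side Spry1, a gene for an inhibitor of receptor tyrosine kinase signalling, was below NOD on every NOD.Idd3 array (-0.38 ± 0.13, adjusted p = 0.372), and Nudt6 differed by -0.66 ± 0.17.

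**Figure D3:**
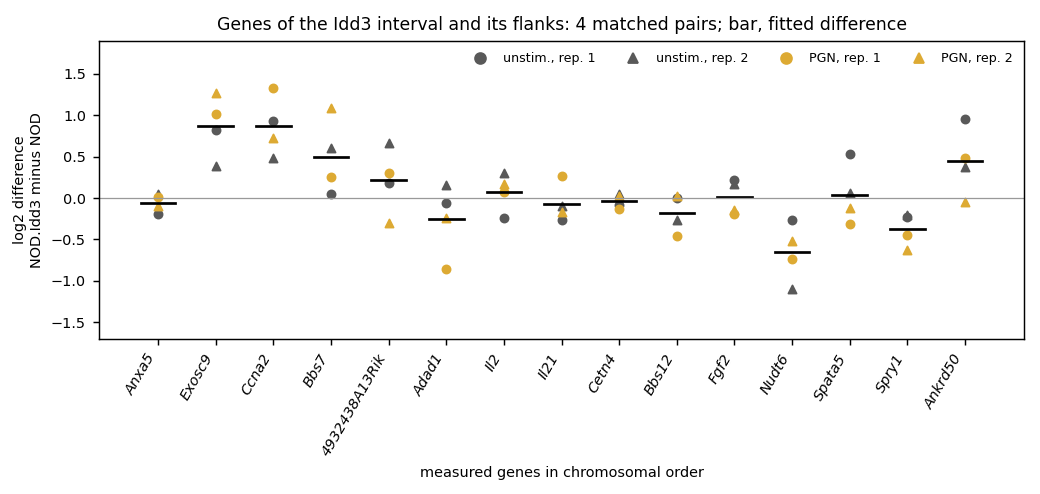
Log2 difference, NOD.Idd3 minus NOD (y axis), in each of the 4 matched pairs for 15 measured genes in and around the Idd3 interval, in chromosomal order (x axis, not to scale), with grey for unstimulated and yellow for PGN pairs, and bars for the fitted difference. Exosc9 and Ccna2 lie above 0 in every pair (both fitted at 0.87), and Il2 and Il21 lie around 0.

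The genes that passed were spread over 17 chromosomes. Chromosome 3 held 2 of them among its 913 tested genes, Cd5l and Csf1, which lie 198 and 598 protein-coding genes from Il2. On chromosome 2 there were 5 and on chromosomes 4, 6, 15 and 19 there were 4 each. Over all chromosomes 0.236% of the genes tested passed. The numbers tested on chromosomes other than 3 are not given here, so these counts cannot show clustering. The 4 on chromosome 4 were the C1q genes and Pla2g2d.

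The next question was whether the strain difference was the same with and without PGN. As contrasts of the fit to all 8 arrays, 0 genes passed in limma in unstimulated cells (0.0% of genes, 1051 at an unadjusted p under 0.05) and 0 with PGN (0.0%, 1655). Fitted to the 4 arrays of 1 condition alone, 25 genes passed in unstimulated cells, 2 higher and 23 lower and 18 of them among the 43, and 0 with PGN (2175 at an unadjusted p under 0.05, smallest adjusted p = 0.0671). The difference between conditions was called for 0 genes (0.0%, 609 at an unadjusted p under 0.05, smallest adjusted p = 0.942). Both conditions use different arrays, and the B list had a median of -1.36 in unstimulated and -0.99 in PGN-treated cells. The macrophage list had medians of -0.71 and -0.59. Mrc1 differed by -1.90 ± 0.23 unstimulated and by -1.23 ± 0.23 with PGN, a change of 0.67 ± 0.33 between conditions (limma adjusted p = 0.942), so that it could not be shown to differ. For Tenm4 the values were -1.58 ± 0.21 and -0.97 ± 0.21, and for C1qb -1.12 ± 0.20 and -1.61 ± 0.20, and these changes did not pass either.

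PGN itself moved 3243 genes over both strains, 17.8% of those tested (limma adjusted p under 0.05), and 10 of the 43 genes were among them. The 8 that rose were Tubb1 (2.19), Plcxd2 (1.83), Cxcr5 (1.68), Mid1 (0.97), Tnfrsf13c (0.91), Serpinb6b (0.89), Sema6d (0.84) and Btla (0.61). The 2 that fell were Cd79b (-0.85) and Apoc2 (-1.15). None of the macrophage-list genes that passed was among the 10: the PGN effect was -0.09 for C1qa, -0.11 for C1qb, -0.01 for C1qc, 0.19 for Cd163 and 0.52 for Mrc1 on the log2 scale.

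**Figure D4:**
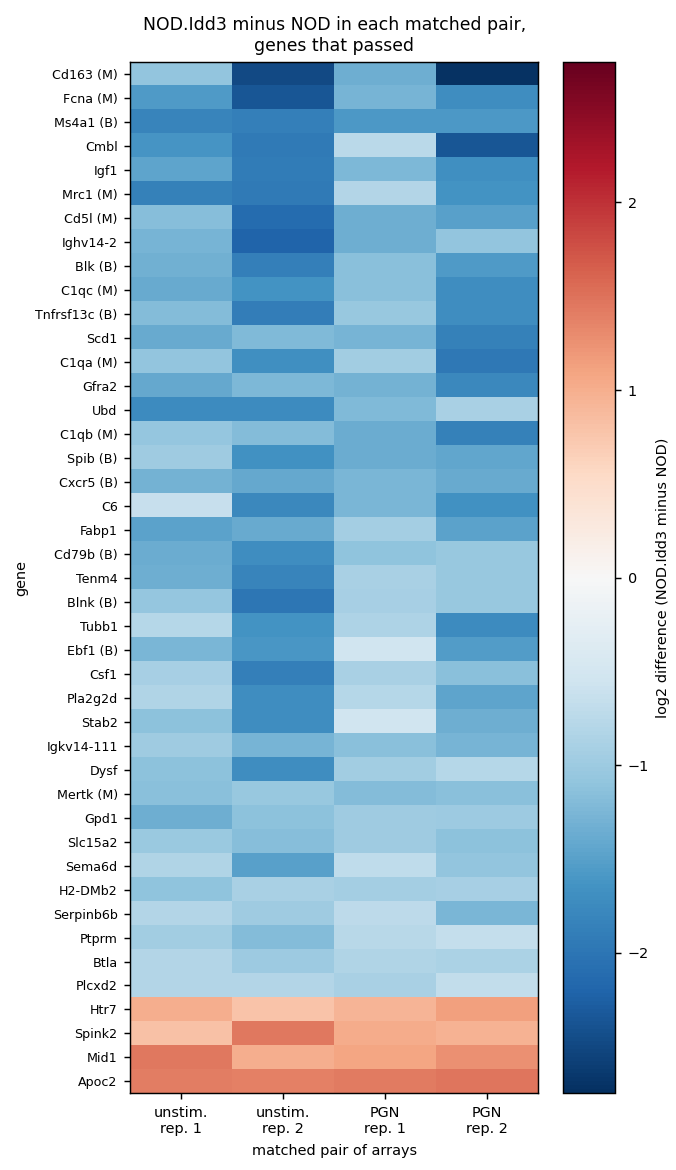
Log2 difference, NOD.Idd3 minus NOD (colour), in each matched pair of arrays (x axis) for the 43 genes that passed (y axis, ordered by fitted difference, with M for the macrophage list and B for the B cell list). Every cell is blue for the 39 lower genes and red for the 4 higher genes, and the unstimulated replicate 2 pair has the largest difference in 26 of 43.

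The matched pairs differed in size and in which genes they shared. Among the 43 genes the unstimulated replicate 2 pair had the largest difference for 26, and its median was -1.64, against -1.12 in the unstimulated replicate 1 pair, -0.95 in the PGN replicate 1 pair and -1.34 in the PGN replicate 2 pair. Over all 18193 genes the strain differences of the replicate 1 pairs had a Pearson r of 0.544 with each other, and those of the replicate 2 pairs 0.006. The mean of the replicate 1 pairs and the mean of the replicate 2 pairs had an r of 0.193. These r values are descriptions across genes, which are not independent, and arrays with the same replicate number may share a preparation. Fitted alone, the 4 replicate 1 arrays gave 986 genes (542 higher and 444 lower), among them all 43, and the 4 replicate 2 arrays gave 30 genes, 15 of them among the 43. The 43 were chosen with these arrays in the fit, so their return in either subset is no separate support. If the 2 conditions of a replicate number share a preparation, these counts reflect only the spread within preparations.

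Single genes differed in how alike the replicate numbers were. Cd163 differed by -1.21 in replicate 1 and by -2.60 in replicate 2, and C1qa by -1.02 and -1.83. Ms4a1 was alike in both, at -1.69 and -1.73, as was Apoc2 at 1.42 and 1.44. Csf1 differed by -0.89 in replicate 1 and by -1.51 in replicate 2. Each of these fits had a single array per strain and condition. Within a fit the limma errors were nearly the same for all of these genes. They do not show a gene's own spread, so none are given. The difference between replicate numbers was not tested.

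**Figure D5:**
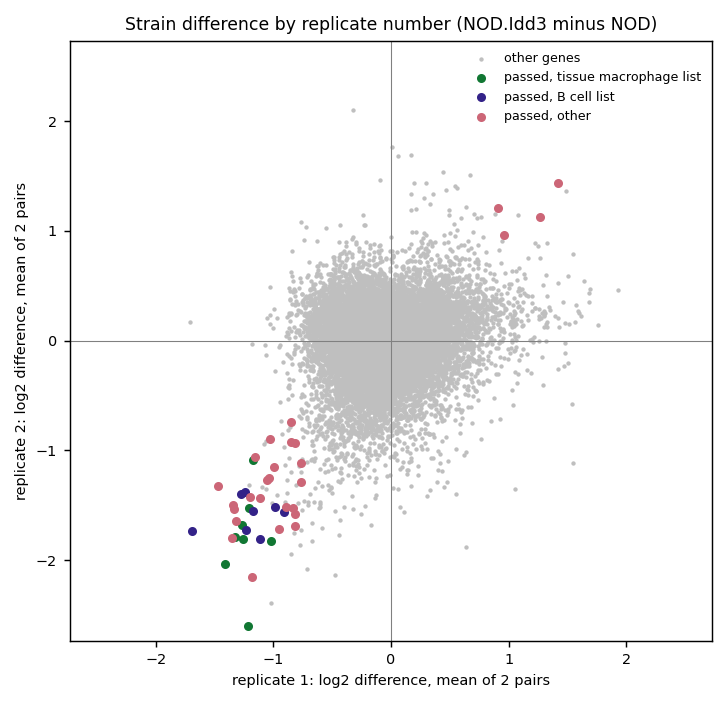
Log2 strain difference, NOD.Idd3 minus NOD, of each of 18193 genes as the mean of the 2 replicate 1 pairs (x axis) and of the 2 replicate 2 pairs (y axis), with green, blue and red points for the genes that passed in the macrophage list, the B cell list and neither. The genes that passed lie at the lower left and upper right corners, while the cloud of all genes has an r of 0.193.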

How the data were processed

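RNA of CD11b+ cells was hybridised to 8 single-channel arrays, biotin-labelled per the labels. The authors deposited 1 intensity per probe set and array, made with RMA per the submitters' processing notes, on a linear scale from 3.97 to 42906. The sources used here do not name the software, its version or the chip definition. The log2 of each deposited intensity was taken, with no further normalization or filter. Of 45101 probe sets, 64 controls, 9160 with no gene symbol and 932 with several were left out. Of the 34945 with 1 symbol, 34741 matched RefSeq genes of assembly GRCm38.p6, used for names, chromosomes and gene order. Each of 18193 genes was represented by its probe set of highest mean.

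Strain, stimulation and replicate number were fitted as additive terms with limma 3.58.1 in R 4.3.3 (4 residual and 5.37 prior degrees of freedom), with p-values adjusted by Benjamini-Hochberg over all genes and a threshold of 0.05. Errors are limma standard errors. Values by condition came from group means with the replicate term. Replicate numbers were taken as pairing the arrays, because replicate 1 arrays share a date in the labels' array names and because the difference between replicates correlated at 0.17 to 0.42 in all 6 pairs of groups. The number of arrays limits the precision.

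Genes named were the 15 of smallest p and the 10 of largest change in each direction among those that passed (the 5 of smallest p upward), up to 4 of each of 30 lists, the C1q genes, the B cell genes that passed and the Idd3 interval genes. Other genes, such as Mertk, Tenm4, Btla and list members that did not pass, were chosen after their values were seen. The members and lists were chosen with earlier results of these data known, so the share of a list against all genes is no separate support. The alternatives were other terms and blocks, array weights, a variance trend, quantile normalization, other probe set rules, a filter at the 40th percentile, and fits without arrays.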

Additional observations from a re-analysis of the deposited data

Results flagged for a closer look

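An outlying value among the 4 matched pairs was sought for each of the 43 genes that passed and for the medians of 30 lists. The gap to the nearest other value over the whole range was set against Dixon's 95% critical value. Chance alone gives about 1 in 20 groups such a value, so the few found among so many groups are no more than chance can give. For Blnk the unstimulated replicate 2 pair differed more than the other pairs, with a ratio of 0.854. The median of the B cell receptor signalling genes (-0.20, -0.60, -0.15 and -0.14 in the unstimulated replicate 1 and 2 and PGN replicate 1 and 2 pairs) was lowest in the same pair, with a ratio of 0.862. The median of the neutrophil markers was highest in the PGN replicate 1 pair (0.59, against 0.12, 0.09 and 0.05), with a ratio of 0.872.

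The strain difference of Spata5 was 0.30 ± 0.20 unstimulated and -0.22 ± 0.20 with PGN, a change of -0.51 ± 0.28. The difference of Fgf2 was 0.20 ± 0.18 and -0.17 ± 0.18, a change of -0.36 ± 0.25, at a dim level. In both genes the pairs of one condition lay above 0 and those of the other below, but neither change passed (limma adjusted p = 0.942 for each).

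When all probe sets were fitted together, 3 probe sets without a gene symbol were lower in NOD.Idd3, by -1.20, -1.13 and -1.53 on the log2 scale, and none was higher. Of 34945 probe sets with 1 symbol 33 passed, and of 932 with several 0 passed.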

How the results depend on the processing

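The 43 genes called with the replicate block became 5 with no replicate block, 27 with group means and the replicate block (26 shared) and 0 with group means and no replicate block (1175 at an unadjusted p under 0.05). With conditions averaged, 0 passed with no replicate block (smallest adjusted p = 0.832) and 0 with the replicate block (0.112), the latter chosen after seeing the data. Strain and replicate number as a random block gave 135 with the replicate term (block correlation -0.231) and 0 without it (0.231, with 872 at an unadjusted p under 0.05). The term for the array-name suffix RR1, whose meaning is not given, gave 24. Array weights, whose estimation stopped before convergence, gave 513, of which 315 were higher. Leaving out 1 array gave 0 to 32. Unstimulated arrays alone gave 25 (18 shared), PGN arrays alone 0 (2175 at an unadjusted p under 0.05), and replicate 1 alone 986. Without both unstimulated arrays of replicate 2 it was 0. The causes were not tested. Quantile normalization (59), the mean of probe sets (43, 33 shared), no _x and _s probe sets (45), the percentile filter (34), a variance trend (50) and replicate 2 alone (30) kept the count within 1.5 times. Of the 32 named genes that passed, 0 changed sign in any of these fits, and of the 102 that did not pass, 17 did, among them Il2, Il21, Jchain, Spata5, Ptprc and Cxcl9. Directions of genes whose strains do not overlap are fixed by that. Genes that passed although their strains overlap already had 1 direction in 4 of 4 matched pairs. The kept signs are therefore no sign of stability. The contrasts by condition from the group means, and their difference, called 0 genes with no replicate block, after quantile normalization, with the percentile filter and without each array. The number of arrays and the dim signal of Il2 and Il21 set the limits.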

Other observations

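No gene of the list for sensing bacterial products passed. Tlr2, the gene of the receptor through which PGN preparations are known to act, differed by -0.11 ± 0.13 (NOD.Idd3 minus NOD, log2, SE, limma adjusted p = 0.794), the adaptor gene Myd88 by 0.04 ± 0.12 and the intracellular sensor gene Nod1 by -0.54 ± 0.18. Tlr8 differed by 0.85 ± 0.26 and Tlr6 by -0.36 ± 0.14. The 22 measured genes had a median of -0.07 and ran from -0.54 to 0.85. Among 26 chemokine and chemokine receptor genes, with a median of -0.23, Cxcr5 was the only one to pass, and Cxcr3, a receptor gene of activated T and NK cells, differed by -0.99 ± 0.17 (adjusted p = 0.0706). The 24 genes linked to suppressor cells and tolerance had a median of -0.04 and the 30 immediate early genes -0.20, with none past the threshold.

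T cell genes had a median of -0.07. Cd4, which some macrophages and dendritic cells also express, differed by -0.77 ± 0.14 (limma adjusted p = 0.0873), while Cd3e differed by 0.19 ± 0.15 and Cd8a by 0.02 ± 0.14. Among dendritic cell genes Itgax, which encodes CD11c, differed by -0.74 ± 0.22, Ccr7 by -0.61 ± 0.23 and Fscn1 by -0.65 ± 0.14. None of these passed, and 8 of the 17 dendritic cell genes were lower in 4 of 4 pairs, against 9.89% of all genes. Irf4, a transcription factor gene of B, plasma and dendritic cells, differed by -0.99 ± 0.22 (adjusted p = 0.149).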
